A study of Mus musculus with 6 samples.

Results

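Neuropeptide genes were followed in the deep cerebellar nuclei of mice trained in eyeblink conditioning. The 10 genes listed were Sst, Npy, Penk, Pdyn, Cck, Vip, Tac1, Crh, Adcyap1 and Cartpt, and a probe set belonged to the group when the platform annotation, with current or older symbols, named one of them and no other gene. This gave 15 probe sets for 9 of the genes, among 29137 probe sets with a single symbol for 15950 genes. Crh, the gene of corticotropin-releasing hormone, was not analysed here. Of the 15 probe sets, 11 lay on the array design labelled A, 1 on design B and 3 on design C, and 6 of the 9 genes were read on 1 design alone.

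The tissue was taken around the anterior interpositus, the part of the cerebellar output nuclei on which the learned eyelid response depends, from male C57BL/6 mice of 11 to 18 weeks. All mice carried eyelid wires and a headstage and, after 3 days of recovery, received tones of 352 ms and shocks of 100 ms near the left eye for 7 days. In the paired group the shock began 252 ms into the tone and both stopped together; in the unpaired group tone and shock were kept apart in a pseudorandom order. Nuclei of the trained side, 10 to 15 per pool, were sampled with syringe needles 10 to 30 min after sacrifice and pooled, and each training group was read on 1 array of each design. Whether 1 RNA pool per training group served all 3 designs is not given in the labels. The 6 arrays hold no replicate of either group on any design, so differences are described without an error between animals and without p-values.

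Neuropeptides are cut from larger precursor proteins by convertases in the secretory pathway, stored in dense core vesicles and released to act on G protein-coupled receptors. In the cerebellum enkephalin, the product of Penk, is found in Golgi cells of the cortex, and several peptides reach the cerebellum in mossy and climbing fibres, whose cell bodies and most of whose mRNA lie elsewhere. Messenger RNA in a dissection of the nuclei therefore reports the cells whose bodies were in the sample.

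The arrays of a design were alike, with a Pearson correlation across probe sets of 0.995 (design A), 0.991 (B) and 0.994 (C). A signal of 1 probe set cannot be set against that of another, since probes bind with different strength. Each reading is also given as its percentile within its own array. This rank keeps the same limit, and it depends on the other probe sets of the design, so ranks of different designs are not on 1 scale. A probe set is called bright when its mean signal lay at or above the median of its design, which was a log2 signal of 4.81 (design A), 4.32 (B) and 3.02 (C). The floor of a design is the 25th percentile of its signals, 3.28, 3.15 and 2.25 on the log2 scale, and a probe set under it in both pools was given no ratio. The labelled tissue showed markers of the projection neurons of the nuclei. Nefh, a neurofilament gene, stood at a percentile of 97.8 in the unpaired pool, and Slc17a6, their vesicular glutamate transporter, at 79.3 on design B and 81.9 on design C, with 99.9 on a probe set of design C whose name carries a suffix for probes shared with other transcripts. Lhx9 and Tbr1 lay under the floor. Over the 12 bright probe sets of this marker list the mean log2 signal was 7.95 (unpaired) and 8.01 (paired). Of its 6 genes with a bright probe set 3 were higher and 3 lower in the paired pool, with a median log2 ratio of -0.08. Nefh was among the lower, with a log2 ratio of -0.24. Slc17a6 itself had a log2 ratio of 0.85 on design B but -0.08 and -0.0025 on design C. Markers of granule and Purkinje cells of the adjoining cortex were present too, as were markers of inhibitory interneurons. Whether the latter came from cortex or nuclei was not tested. The brainstem and vestibular markers Tph2 and Hoxb5 were bright too, with log2 ratios of -0.39 and 0.44. Oligodendrocyte markers had a mean log2 signal of 9.04 (unpaired) and 8.96 (paired) over 12 bright probe sets, with 1 of 5 genes higher. Bright markers of astrocytes, microglia and choroid plexus were also read, with 3 of 5, 4 of 4 and 1 of 2 genes higher. Granule cell markers had a mean log2 signal of 5.37 (unpaired) and 5.72 (paired) over their 10 bright probe sets, with no gene under the floor. Of 6 genes 5 were higher in the paired pool, beside 49.0% of all 10578 genes with a bright probe set. Gabra6 had a mean log2 ratio of 0.89, past 1.5-fold, as were 0.388% of all such genes. Purkinje cell markers had 6.84 and 6.90 over 14 bright probe sets, with 4 of 7 genes higher. Markers of inhibitory interneurons, Golgi cells included, had 6.89 and 6.93 over 7 bright probe sets, with 2 of 5 genes higher and Grm2, the receptor gene that marks Golgi cells, under the floor. The part of these marker differences in the values below was not tested, and in pooled tissue fewer cells of a type and less RNA per cell cannot be told apart.

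Whether neuropeptide mRNA differed between nuclei from paired and from unpaired training was asked probe set by probe set. No neuropeptide probe set was 1.5-fold apart between the pools. Among the 7 bright ones, from Penk, Cartpt, Npy, Sst and Vip, the log2 ratio of paired over unpaired ran from -0.49 to 0.28 with a median of 0.04, and 4 were higher and 3 lower in the paired pool. Of all 18351 bright probe sets, 0.681% were past 1.5-fold (0.349% higher, 0.332% lower), and the SD of their log2 ratios was 0.19. Their median of 0, with 9175 above 0, was set by the scaling. Set against the share of 0.681%, the 0 of 7 is no result particular to neuropeptides. The largest differences were a Penk probe set on design C, lower in the paired pool, and a Cartpt probe set on design B, higher in it, and in neither gene did every other probe set go the same way by a like amount. The other 8 probe sets were not bright, and 5 of them, including those of Tac1 and Adcyap1, lay under the floor in both pools.

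**Figure D1:**
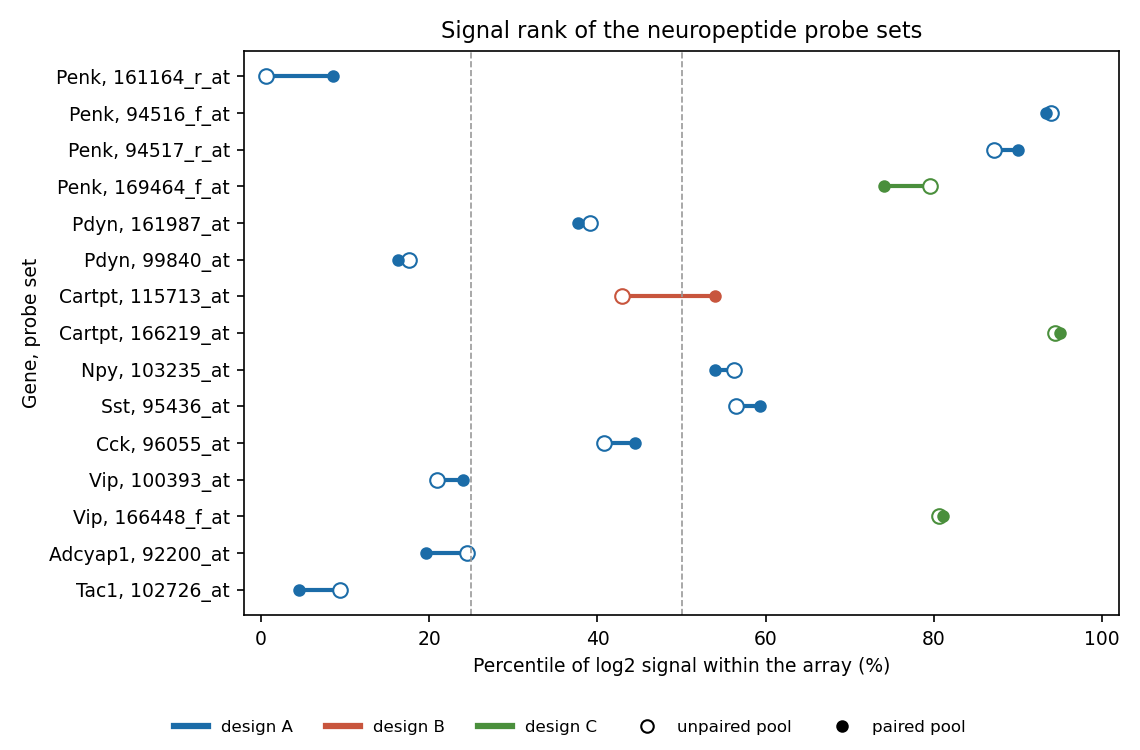
Percentile of the log2 signal within its array (%) for each of the 15 neuropeptide probe sets, with the unpaired pool as an open and the paired pool as a filled circle, coloured by array design; dashed lines mark the 25th and 50th percentiles. Penk, Vip and Cartpt have probe sets far apart in rank, and the widest step between the pools is that of the Cartpt probe set on design B, from 42.9 to 53.9.

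Penk encodes proenkephalin, the precursor of the enkephalins that act on delta and mu opioid receptors. Its probe set 94516_f_at on design A had a log2 signal of 8.35 (unpaired) and 8.17 (paired), percentiles of 93.9 and 93.3, and a log2 ratio of -0.17. A second one on the same design, 94517_r_at, which the annotation ties to the same transcript record, had 7.37 and 7.64, percentiles of 87.2 and 90.1, and a log2 ratio of 0.28. These neighbours on 1 pair of arrays therefore pointed in opposite directions. On design C, 169464_f_at had 5.02 (unpaired) and 4.52 (paired), percentiles of 79.6 and 74.0, a log2 ratio of -0.49 or 1.40-fold lower. Only 75 of the 5934 bright probe sets of design C had a lower log2 ratio. The fourth Penk probe set, 161164_r_at on design A, had 2.07 and 2.52, percentiles of 0.628 and 8.58, under the floor in both pools. The same gene was thus read near the top and at the bottom of 1 array.

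The mean log2 ratio of Penk over its 3 bright probe sets was -0.13, but it was 0.06 over the 2 on design A and -0.49 on design C alone. Its ratios spanned 0.77 on the log2 scale. Of the 740 genes with 3 bright probe sets, the median span was 0.31, 3.65% had a span at least that of Penk, and 73.2% had probe sets in both directions. The rank gap between its dimmest and brightest probe sets was 89.0 percentile points, against a median gap of 53.2 over the 826 genes with 4 probe sets, of which 3.27% had at least as wide a gap. All 4 Penk probe sets carry a suffix in their names. The letter f marks probes shared by a family of related sequences and r a set built under relaxed selection rules, so which transcripts they bind is less certain than for a plain probe set.

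Pdyn encodes prodynorphin, the precursor of dynorphins, which act on kappa opioid receptors. Probe set 161987_at on design A had a log2 signal of 4.11 (unpaired) and 4.05 (paired), percentiles of 39.1 and 37.6, and a log2 ratio of -0.05. The other, 99840_at, had 2.88 and 2.86, under the floor in both pools. Neither was bright, and both differed between the pools by less than 0.1 on the log2 scale.

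Cartpt encodes the precursor of the CART peptides, best known from feeding circuits of the hypothalamus. On design C, probe set 166219_at had a log2 signal of 6.80 (unpaired) and 6.89 (paired), ranks of 657 and 596 among 11868 probe sets. Its log2 ratio was 0.10. On design B, 115713_at had 3.99 and 4.51, percentiles of 42.9 and 53.9, and a log2 ratio of 0.53 or 1.45-fold higher, just short of 1.5-fold and, by its mean signal, just short of bright. When the probe sets of a design were split by signal into 4 bands of equal size, those of the same band had differences with an SD of 0.23, and 2.80% of them differed at least as much. The bright probe set of the gene thus differed in the same direction by far less. The gap in rank between the 2, which lie on designs whose ranks are not on 1 scale, was 46.3 percentile points. A gap at least as wide was found in 21.1% of the genes with 2 probe sets.

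**Figure D2:**
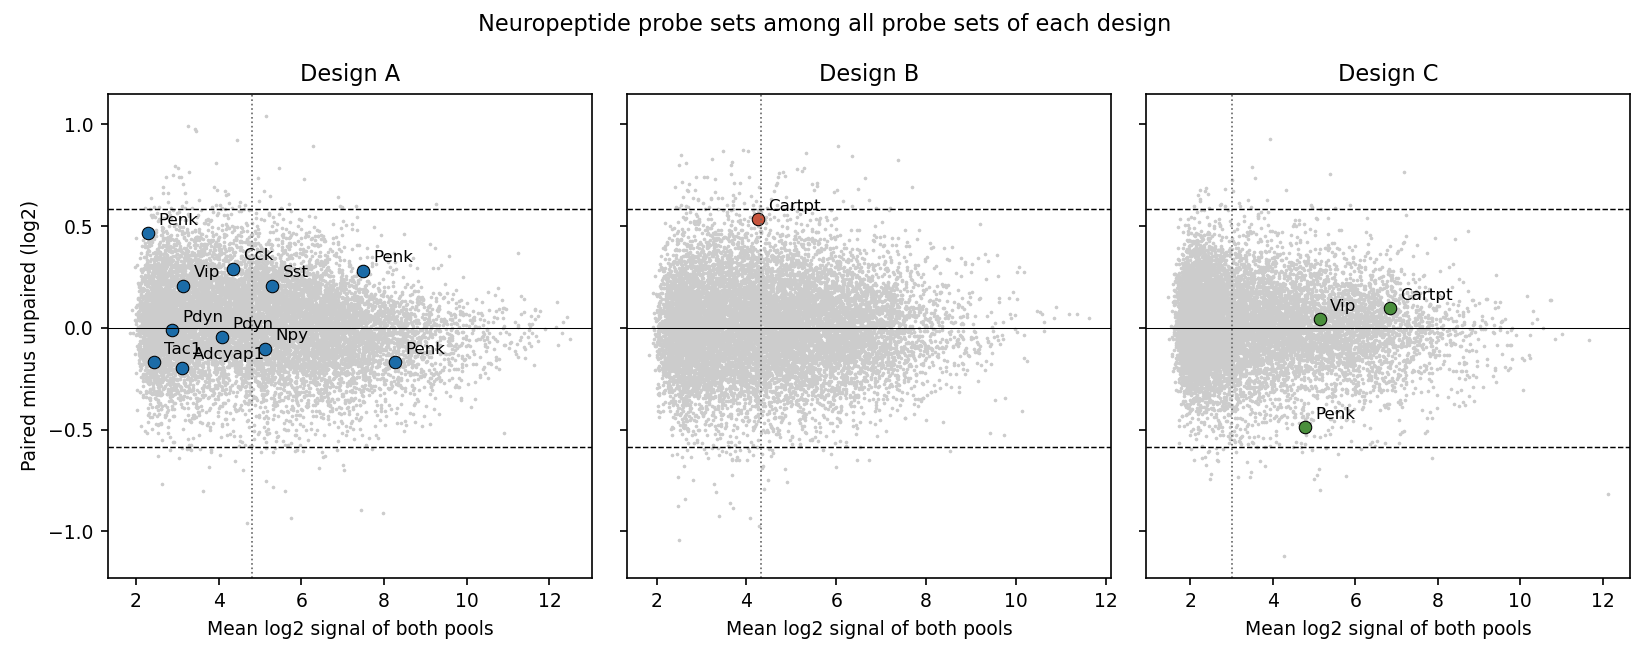
Paired minus unpaired log2 signal after scaling, against the mean log2 signal of both pools, for all probe sets of each design (grey) and the neuropeptide probe sets (coloured and named); dashed lines mark 1.5-fold and the dotted line the median signal of the design. All 15 neuropeptide probe sets lie between the dashed lines, with Cartpt on design B at 0.53 and Penk on design C at -0.49 the nearest to them.

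Npy encodes neuropeptide Y, an inhibitory co-transmitter of many interneurons. Its only probe set, 103235_at on design A, had a log2 signal of 5.19 (unpaired) and 5.08 (paired), percentiles of 56.2 and 54.0, and a log2 ratio of -0.10. Of the probe sets of its signal band, 59.1% differed at least as much.

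Sst encodes somatostatin, a peptide of inhibitory neurons that in the cerebellum is found among others in Golgi cells. Its only probe set, 95436_at on design A, had 5.20 (unpaired) and 5.40 (paired), percentiles of 56.4 and 59.3. The log2 ratio was 0.21, or 1.15-fold higher, about 1 SD of the probe sets in its signal band, which was 0.20. Of these, 29.0% differed at least as much. Npy and Sst, both read by plain probe sets, were the neuropeptide readings nearest above the median of design A.

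Vip encodes vasoactive intestinal peptide, a relative of PACAP that shares receptors with it. Probe set 166448_f_at on design C had a log2 signal of 5.12 (unpaired) and 5.16 (paired), percentiles of 80.6 and 81.1, and a log2 ratio of 0.04. The plain probe set on design A, 100393_at, had 3.05 and 3.24, percentiles of 21.0 and 23.9, under the floor in both pools. The bright reading of Vip thus rests on a probe set for a sequence family alone.

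Cck encodes cholecystokinin, a peptide of gut and brain. Its probe set 96055_at on design A had 4.20 (unpaired) and 4.48 (paired), percentiles of 40.8 and 44.4, above the floor but not bright. The log2 ratio was 0.29, and 18.5% of the probe sets in its signal band differed at least as much.

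Adcyap1, the gene of PACAP, had a log2 signal of 3.23 (unpaired) and 3.02 (paired) on its probe set 92200_at of design A. Tac1, the precursor gene of substance P and neurokinin A, had 2.53 and 2.35 on 102726_at of the same design. Both lay under the floor in both pools, and their scaled differences of -0.20 and -0.17 have no reading as a change of transcript.

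Of the 7 bright probe sets 4 carry a suffix, and the 3 plain ones are those of Cartpt on design C, Npy and Sst. On these 3 the log2 ratio was 0.10, -0.10 and 0.21. Over all 15 probe sets, dim ones included, 8 were higher and 7 lower in the paired pool, and 8 differed by less than the SD of the probe sets of the same design and signal band. The 3 that differed by 2 such SDs or more were Penk on design C, the Penk probe set under the floor and Cartpt on design B. In their bands 1.75%, 2.90% and 2.80% of the probe sets differed at least as much. The share of all probe sets past 1 or 2 such SDs was not counted, so these counts are not read as particular to neuropeptides. The Penk probe set under the floor has no reading as a change of transcript.

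The promoters of Sst and Cartpt are shown because both hold the cyclic AMP response element, the motif through which CREB, a factor that neuronal activity engages, was first studied in the somatostatin gene. The motif TGACGTCA, which reads the same on both strands, is in capitals in the windows below, which run 5′ to 3′ along the gene from 250 bases before to 50 bases after its start (RefSeq, GRCm38.p6). The Sst window is chr16:23890795-23891094 on the minus strand, with the element beginning 48 bases before the start. The Cartpt window is chr13:99900634-99900933 on the minus strand, with the element beginning 112 bases before the start.
Sst: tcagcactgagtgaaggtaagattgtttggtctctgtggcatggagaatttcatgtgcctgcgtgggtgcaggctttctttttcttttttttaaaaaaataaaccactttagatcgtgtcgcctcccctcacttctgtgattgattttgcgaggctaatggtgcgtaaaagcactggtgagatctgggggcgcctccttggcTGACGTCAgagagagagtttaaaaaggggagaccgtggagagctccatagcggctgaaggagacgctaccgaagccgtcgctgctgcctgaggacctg
Cartpt: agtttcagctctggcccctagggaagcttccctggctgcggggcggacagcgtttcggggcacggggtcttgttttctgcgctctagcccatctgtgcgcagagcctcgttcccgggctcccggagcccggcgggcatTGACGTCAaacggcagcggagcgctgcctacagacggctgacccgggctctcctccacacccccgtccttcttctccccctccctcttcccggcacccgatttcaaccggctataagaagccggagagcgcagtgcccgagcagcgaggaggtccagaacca

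Penk and Crh had no window in the promoter source, so they were not searched. Of the 8 neuropeptide genes with a window, Sst and Cartpt held the full element, against 2.03% of 27025 genes. The shorter motif TGACG, searched on both strands and contained in the full one, was in the windows of 6 of the 8 (Tac1, Cck, Vip, Adcyap1, Cartpt and Sst), against 23.0% of all genes. Of the genes with the full element, the 284 with a bright probe set had a median log2 ratio of -0.013, with 48.2% higher in the paired pool and 0 past 1.5-fold, and the 8226 genes with a bright probe set and no full element had a median of -0.0061 with 48.3% higher. Sst at 0.21 and Cartpt at 0.10 are given beside these values as a description, and a match of letters is no evidence of binding.

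Receptors of the listed peptides were read next. Of 24 receptor and binding protein genes with a probe set, 10 had a bright one. Of these 6 were higher and 4 lower in the paired pool, with a median log2 ratio of 0.05, and 0 were past 1.5-fold. Over all 10578 genes with a bright probe set the median was -0.0039, 49.0% were higher and 0.388% were past 1.5-fold.

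Adcyap1r1, the receptor gene specific to PACAP, had 4 bright probe sets on 3 designs, all 4 higher in the paired pool, while the only probe set of Adcyap1 itself lay under the floor. Probe set 129856_at on design C had a log2 signal of 8.21 (unpaired) and 8.52 (paired), percentiles of 98.6 and 99.0, and a log2 ratio of 0.31. On design B, 117286_at had 7.37 and 7.49 with a log2 ratio of 0.13, and 106895_at had 5.91 and 5.95 with 0.04. On design A, 98361_at had 4.94 and 5.17 with a log2 ratio of 0.25, and the dimmer 98362_s_at had 3.75 and 3.84. Of the probe sets in the signal bands of the 4 bright ones, 8.66%, 46.9%, 81.3% and 20.5% differed at least as much, in the order given. How often 4 bright probe sets of a gene share 1 direction was not counted. The mean of the bright ones was 0.18, with no replicate array to set it against, and the other receptors for these peptides did not share 1 direction. Vipr1, which binds VIP and PACAP, had 4.77 (unpaired) and 5.09 (paired), a log2 ratio of 0.33. Vipr2 was lower on both probe sets, with log2 ratios of -0.12 on design C and -0.19 on the dim one of design A.

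Cckbr, the main cholecystokinin receptor of brain, was read at 8.11 (unpaired) and 8.15 (paired) on design C, percentiles of 98.5 and 98.6. Its log2 ratios were 0.05 there and 0.09 on design A, where its percentiles were 66.0 and 67.2. Cckar lay under the floor.

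Crhr1, the receptor for the hormone made from Crh, which is known in olivary neurons and their climbing fibres, had a log2 signal of 6.98 (unpaired) and 6.75 (paired) on design A. Its log2 ratio was -0.22, the lowest among the receptors. Crhr2 was read near the median of the design, at 4.75 and 4.92 with a log2 ratio of 0.18. Neither probe set of Crhbp, which binds the hormone outside cells, was bright.

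Among the somatostatin receptors Sstr4 had 6.14 (unpaired) and 5.99 (paired) on design A, a log2 ratio of -0.14. Sstr5 had 5.46 and 5.57 on design C with 0.11, and Sstr3 had 5.43 and 5.45 on design A with 0.03. Sstr1 and Sstr2 had no bright probe set. Tacr1, the receptor of substance P, had 5.12 and 5.01 on design A, a log2 ratio of -0.10.

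Receptors for opioid peptides and neuropeptide Y were dim. Oprm1, the mu receptor gene, lay under the floor in both pools. Oprd1 and Oprk1, of the delta and kappa receptors, lay under it in the unpaired pool at 2.74 and 2.95 and just above it in the paired pool at 3.47 each, so their log2 ratio of 0.20 is against the floor. Npy1r and Npy5r lay under the floor on every probe set, and Npy2r, Npy4r and Npy6r were not bright. Gpr160, proposed as a receptor for CART, had 4.24 and 4.26 on design B, just under the median.

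**Figure D3:**
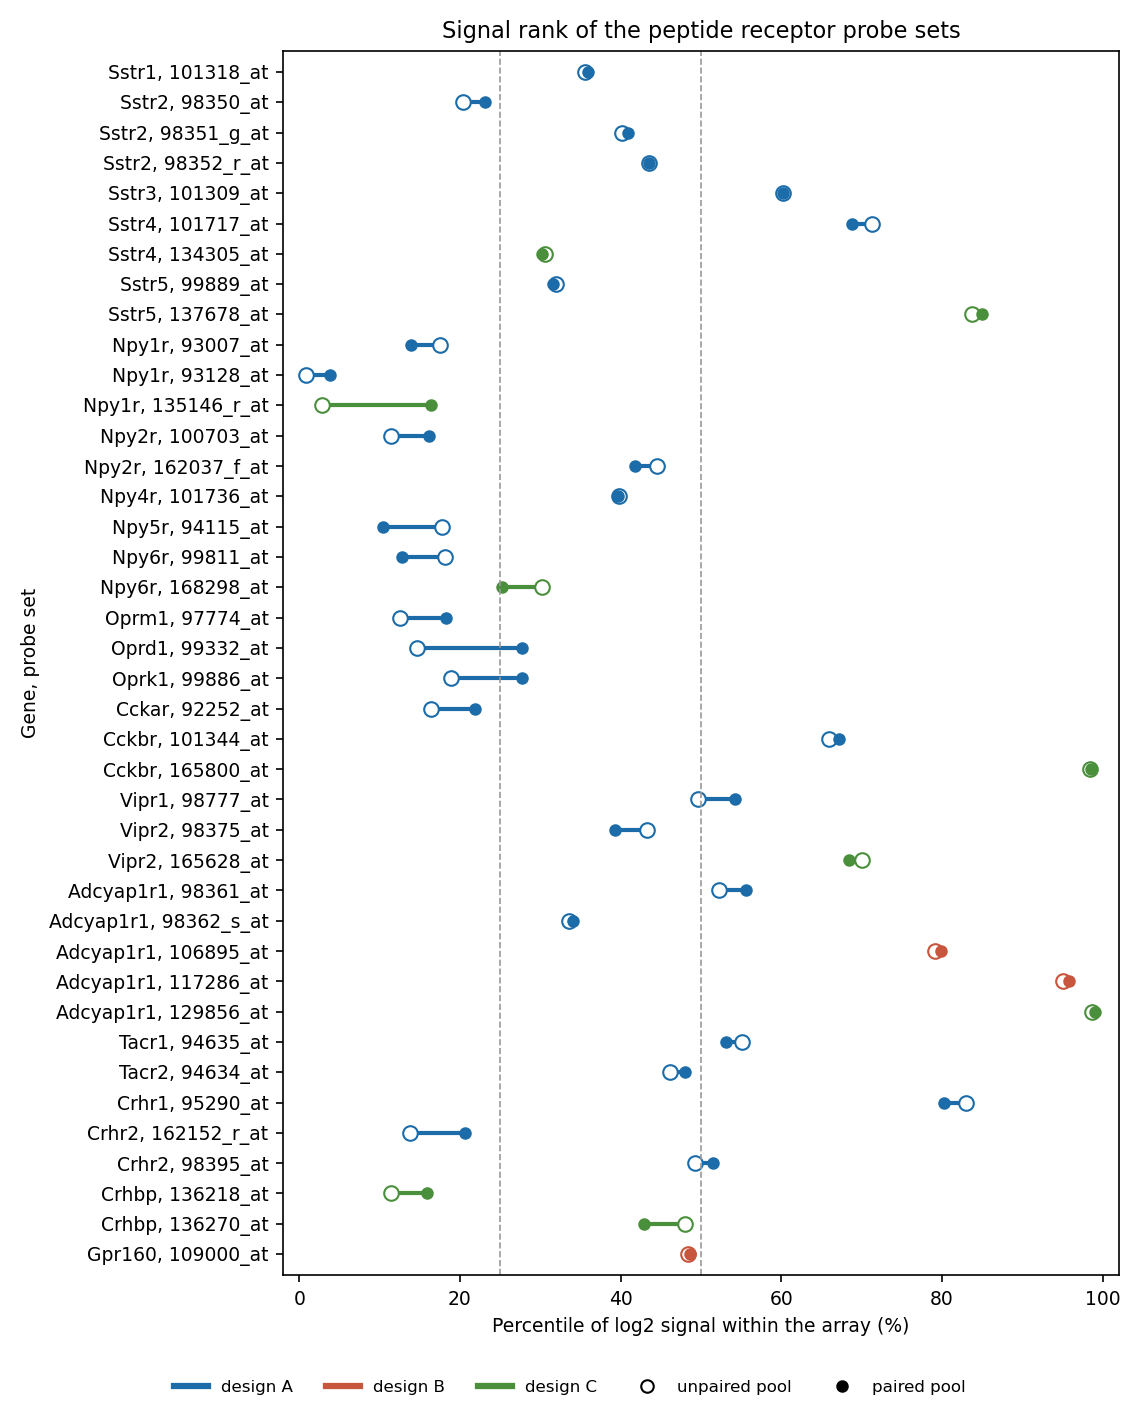
Percentile of the log2 signal within its array (%) for each of the 40 probe sets of peptide receptors and the binding protein Crhbp, with the unpaired pool as an open and the paired pool as a filled circle, coloured by array design; dashed lines mark the 25th and 50th percentiles. Adcyap1r1 and Cckbr reach percentiles above 98 on design C, while the opioid and neuropeptide Y receptors stay under 50.

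Of 20 processing and dense core vesicle genes with a probe set, which make and store peptides, 17 had a bright one, beside 10578 of 15950 genes over all designs. Pcsk1, Pcsk5 and Pam had none, and Pam lay under the floor. Of the 17, 5 were higher and 12 lower in the paired pool, with a median log2 ratio of -0.09 and 0 past 1.5-fold on the gene mean. Of all 10578 genes with a bright probe set, 49.0% were higher and 0.388% were past 1.5-fold. Cadps, which primes dense core vesicles for release, was lowest, at 7.34 (unpaired) and 6.66 (paired) on 1 probe set and 9.03 and 8.78 on the other, log2 ratios of -0.67 and -0.24, and both probe sets carry a suffix. The first of these was the 1 of the list's 27 bright probe sets past 1.5-fold, beside 0.681% of all bright probe sets. Its relative Cadps2, which is typical of granule cells, went the other way, with 5.65 and 6.04 and a log2 ratio of 0.40. Qpct, the enzyme that closes the first residue of some peptides into a ring, had 5.12 and 5.55 and a log2 ratio of 0.44. The granins and their relatives Chga, Chgb, Scg2, Scg3 and Scg5, which pack the vesicle core, had log2 ratios of -0.18, -0.14, -0.15, -0.24 and -0.26, and the carboxypeptidase gene Cpe had -0.24. Of the same list Vgf, also of the granin family, had 0.07, and the vesicle membrane genes Ptprn and Ptprn2 had 0.10 and -0.09. These 9 genes were named after their values were seen, so their directions support nothing. Pcsk1n, an inhibitor of the convertase PC1, was read at 10.77 and 10.70, and the sorting receptor gene Sort1 at 9.43 and 9.26 on its brighter probe set.

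Peptide degrading enzymes had 6 of 9 genes higher, a median of 0.07 and 0 past 1.5-fold, beside 49.0% higher and 0.388% past 1.5-fold over all genes with a bright probe set. Prep, a prolyl peptidase, had the largest log2 ratio, 0.19 on design C, where its probe set carries a suffix, while its dim plain probe sets on designs A and B had -0.09 and -0.08. Dpp7, a dipeptidyl peptidase, had -0.17, Ece1, an endothelin-converting enzyme, 0.11 over 2 probe sets, and Npepps, a neuronal aminopeptidase, -0.01 at a percentile of 90.8.

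Other neuropeptide genes, those beyond the 10 listed, had 13 of 16 bright genes higher in the paired pool, a median of 0.11 and 0 past 1.5-fold. Of all genes with a bright probe set 49.0% were higher, a share over all designs, while 14 of the 16 had a bright probe set on design A. With quantile or loess scaling 75% of 16 genes were higher. Gnrh1, the gonadotropin-releasing hormone gene, had the largest log2 ratio, 0.54, with 4.76 (unpaired) and 5.29 (paired). Avp, the vasopressin gene, had 4.83 and 5.21 with 0.39. Ppy, the pancreatic polypeptide gene, had 5.14 and 5.46 with 0.32 on a suffixed probe set and -0.20 on a dim plain one. These 3 genes, known from hypothalamus and pancreas, were read near the median of design A. Of the brightest, Cbln1, the cerebellin precursor gene of granule cells, had 8.53 and 8.57 with a log2 ratio of 0.05, and Sct, the secretin gene, had 8.05 and 8.12 with 0.08 on the brighter of its 2 bright probe sets, both suffixed, while its plain probe set was dim.

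**Figure D4:**
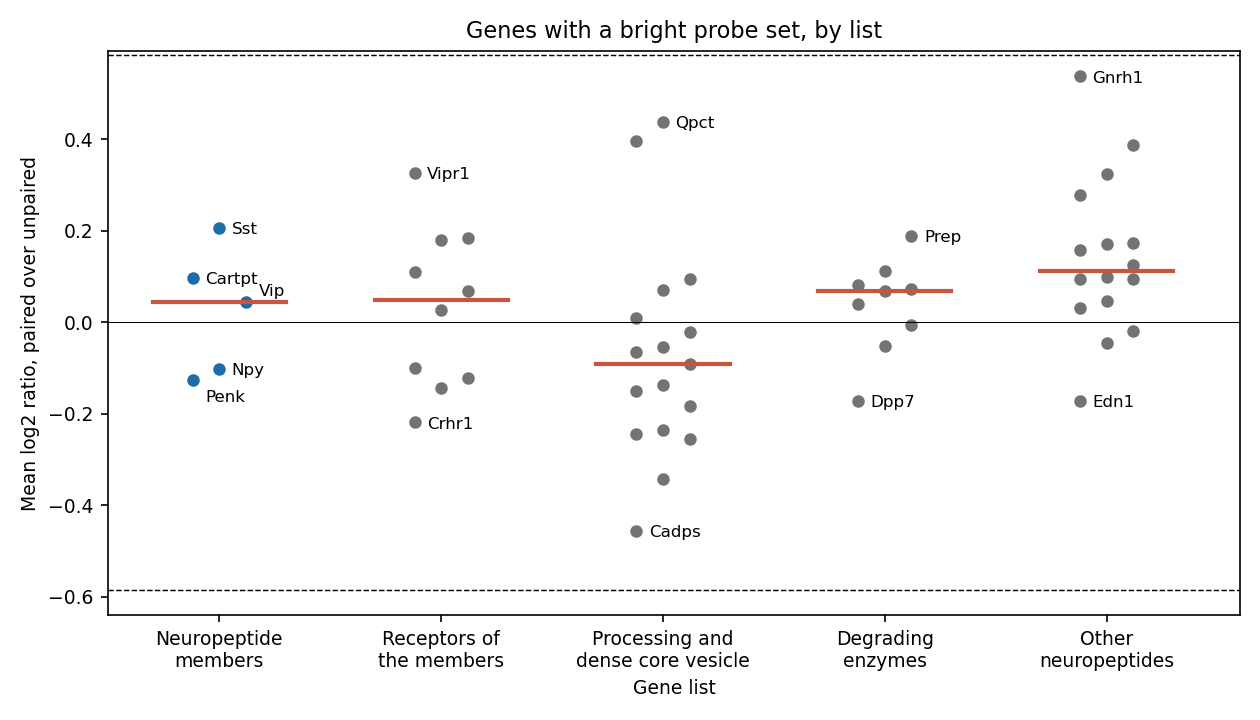
Mean log2 ratio, paired over unpaired, of each gene with a bright probe set, for the 5 neuropeptide genes and 4 lists of related genes; red bars are medians over genes and dashed lines mark 1.5-fold. No gene mean passes 1.5-fold, and the medians run from -0.09 for processing and vesicle genes to 0.11 for other neuropeptides.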

How the data were processed

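Pooled total RNA was labelled with biotin, per the labels' protocols, and read on 1-colour arrays of 3 designs. The deposited values are read as log2 signals per probe set, a base inferred from their range of 1.40 to 12.53; how the authors made them is not given in the sources used here. Symbols came from the platform annotation, updated through gene identifiers with the RefSeq table of GRCm38.p6, which matched 29116 of 29137 single-symbol probe sets. Per design, a constant was taken off the paired array to bring the median difference of bright probe sets to 0, and signals under the 25th percentile were set to it. Scaling, floor and ranks were kept within a design. A gene's value is the mean log2 ratio over its bright probe sets of all designs. The mean signals of marker lists were also taken over all designs. No test was possible with 1 array per group and design; the number of arrays limits the precision. The scaling was tested on simulated data. Python 3.11.15, numpy 2.4.6, pandas 2.3.3 and statsmodels 0.14.6 were used. Genes and lists were chosen with earlier results of these data known. Named were all neuropeptide genes listed, each receptor with a bright probe set, and of other lists the 3 genes of largest absolute mean log2 ratio and the 2 of highest percentile. Dim receptors, Nefh, Slc17a6, Lhx9, Tbr1, Grm2, Pcsk1, Pcsk5 and Pam were also named, and 9 vesicle and processing genes after their values were seen. With 2 values per probe set, likeness of pattern to a neuropeptide gene was not computed.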

Additional observations from a re-analysis of the deposited data

How the results depend on the processing

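Alternatives were no, quantile or loess scaling (span 0.3), no floor or one at the median, no signal filter or one at the 75th percentile, plain probe sets alone, probe sets with several symbols, and each design alone. In all of them no neuropeptide probe set with a ratio passed 1.5-fold, and none of the 10 with a ratio turned sign under another scaling or floor. The mean of Penk alone turned sign, to 0.06 on design A. Cartpt on design B was 0.19 with the floor at the median, and the Cartpt mean was 0.32 with no filter, which adds that probe set. Of 15 neuropeptide probe sets 7 were bright. The counts were 3 of 10 plain probe sets, 4 of 11 on design A, 0 of 1 on design B and 3 of 3 on design C. Of the 5 suffixed probe sets 4 were bright. Of related genes, the share higher was 100% on design B for receptors (1 gene), degrading enzymes (2) and other neuropeptides (2), and 100% on design C for processing genes (2), degrading enzymes (3) and other neuropeptides (1). It was also 100% for other neuropeptides at the 75th percentile of signal (5 genes). The median of processing genes was 0.32 on design C, from the 2 genes read there. Signals near the floor limit what can be said of Tac1, Adcyap1, Pdyn and the dim probe set of Vip. No paired analysis was possible because each group had 1 array per design.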
